A study of Mus musculus with 4 samples.

Results

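Cytochrome P450 families 1 to 3 were followed in mouse liver as every array probe whose deposited gene symbol begins with Cyp, then 1, 2 or 3, a subfamily letter and a number. The rule used names only and no measured value. It gave 72 of 41174 probes and 48 of 21260 gene symbols on the array, and 47 of the 59 protein-coding symbols that RefSeq (assembly GRCm38.p6) lists for these families were measured. Of the 72 probes 71 were tested. The other, Cyp2s1 probe A_52_P456837, was not well above background on any array.

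The tested animals were 4 male C57Bl/6 Wrn mutant mice, 3 months old, that drank water with 0.4% vitamin C from weaning. They were set against 4 male C57Bl/6 wild-type mice of 3 months that were not treated. Wrn encodes a DNA helicase of the RecQ type. Liver RNA of 1 mutant, labelled with Cy5, and of 1 wild-type mouse, labelled with Cy3, was hybridised to each of 4 two-colour Agilent arrays, numbered 1 to 4 below, and the labels call the pairs independent biological replicates. Dyes were never swapped, and genotype, vitamin C and dye therefore cannot be told apart in any ratio. Food and water were given freely and the light cycle was reversed. In the mutant channel 82.5% to 95.6% of probes were well above background, against 84.2% to 96.1% in the wild-type channel, with array 1 the lowest in both. All 10 hepatocyte marker genes, among them Alb and Ttr, were well above background in every animal. The 4 Wrn probes had mean log2 ratios of 0.46, 0.00, -0.06 and -0.10. The probe at 0.46 was higher in the mutants on all 4 arrays (limma adjusted p = 0.0139). The probe at -0.06 was not tested, and those at 0.00 and -0.10 did not pass. The labels do not say which part of Wrn is altered, and these probes therefore do not check the genotype.

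Cytochromes P450 of families 1 to 3 are haem enzymes of the endoplasmic reticulum that add oxygen to drugs, toxins, steroids and fatty acids. In hepatocytes they take electrons from NADPH through P450 oxidoreductase and cytochrome b5. Foreign compounds induce them through 3 nuclear sensors, the Ah receptor for family 1, CAR for the Cyp2b subfamily and PXR for the Cyp3a subfamily, and several members differ between male and female mice through growth hormone. Most are made in hepatocytes around the central vein, and many fall in inflammation.

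Many of these genes lie in clusters of near copies, so the letters of a probe decide what it reads. The Cyp2b probes are shown first because the largest mean change and the widest gap between 2 probes of a gene were found there. Sequences are those of the deposited array annotation, 5′ to 3′. In the Cyp2b13 probe the capitals mark the codons of the haem-binding cysteine signature (glycine, then cysteine 4 residues on, then glycine 2 residues on), which a search of all 72 probes found in this probe alone. Of Cyp2b9 probe A_51_P467076, which has no reading frame free of stop codons, the first 30 of 60 bases are given.
Cyp2b9 A_51_P467076: taaggtctgatttctatgtctacagacttg
Cyp2b9 A_52_P256914: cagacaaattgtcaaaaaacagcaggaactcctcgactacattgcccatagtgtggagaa
Cyp2b10 A_52_P472486: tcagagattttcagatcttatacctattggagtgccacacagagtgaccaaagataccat
Cyp2b10 A_51_P182362: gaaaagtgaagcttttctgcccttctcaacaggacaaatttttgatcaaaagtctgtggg
Cyp2b13 A_51_P492339: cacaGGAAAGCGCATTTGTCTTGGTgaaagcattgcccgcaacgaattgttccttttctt

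The accessions deposited with Cyp2b13 probe A_51_P492339 name transcripts of Cyp2b10, Cyp2b13, Cyp2b23 and Cyp2b9, and those of Cyp2b9 probe A_51_P467076 name Cyp2b9 and Cyp2b10. Cyp2b10 probe A_52_P472486 names Cyp2b10 alone, Cyp2b9 probe A_52_P256914 names Cyp2b9 alone, and no accession of Cyp2b10 probe A_51_P182362 was matched. Among the 71 tested probes the accessions named 1 RefSeq gene for 51, several for 16 and none for 4. Of all pairs of member probes 3 shared a run of at least 20 bases: 2 pairs among the Cyp2a4 and Cyp2a5 probes, with 20 and 28 bases, and the Cyp2d9 pair, with 27.

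The tested probes did not change as a block. With limma on the deposited log2 ratios and Benjamini-Hochberg adjustment over all 39080 tested probes, 9 of the 71 (12.7%) had an adjusted p under 0.05, 5 higher and 4 lower in the mutants, in 8 genes. Over all probes tested 12.3% were called, 6.00% higher and 6.32% lower, so the share among the P450 probes lay near the background in this fit. A change of at least 1.5-fold was called for 3 P450 probes, all of the Cyp2b subfamily, against 0.819% of all probes. The animals' levels did not overlap between groups for 8 P450 probes (11.3%), against 7.15% of all probes. The median log2 ratio, mutant over wild type, was 0.07 for the P450 probes and 0.00 for all probes, and the median size of the ratio was 0.13 and 0.10. The same sign on all 4 arrays was seen in 19 of the 71, and 25 had an unadjusted p under 0.05.

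The count rests on array 2: without it limma called 0 P450 probes, although 22 had an unadjusted p under 0.05, and it called 0.0308% of all probes. The count was 5 without array 3 and 6 without array 1 or 4. As a share this was 8.45% without array 1, against 3.21% of all probes. It was 7.04% against 4.08% without array 3, and 8.45% against 1.87% without array 4. When ratios were centred on each array's median in place of loess, 18 P450 probes were called, 17 higher and 1 lower, against 5 higher and 4 lower with loess. The 18 were 25.4% of the P450 probes, while 15.7% of all probes were called. Of the calls over all probes 54.1% were higher with median centring. Mean log2 ratios of the 9 kept their sign in each alternative run.

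**Figure D1:**
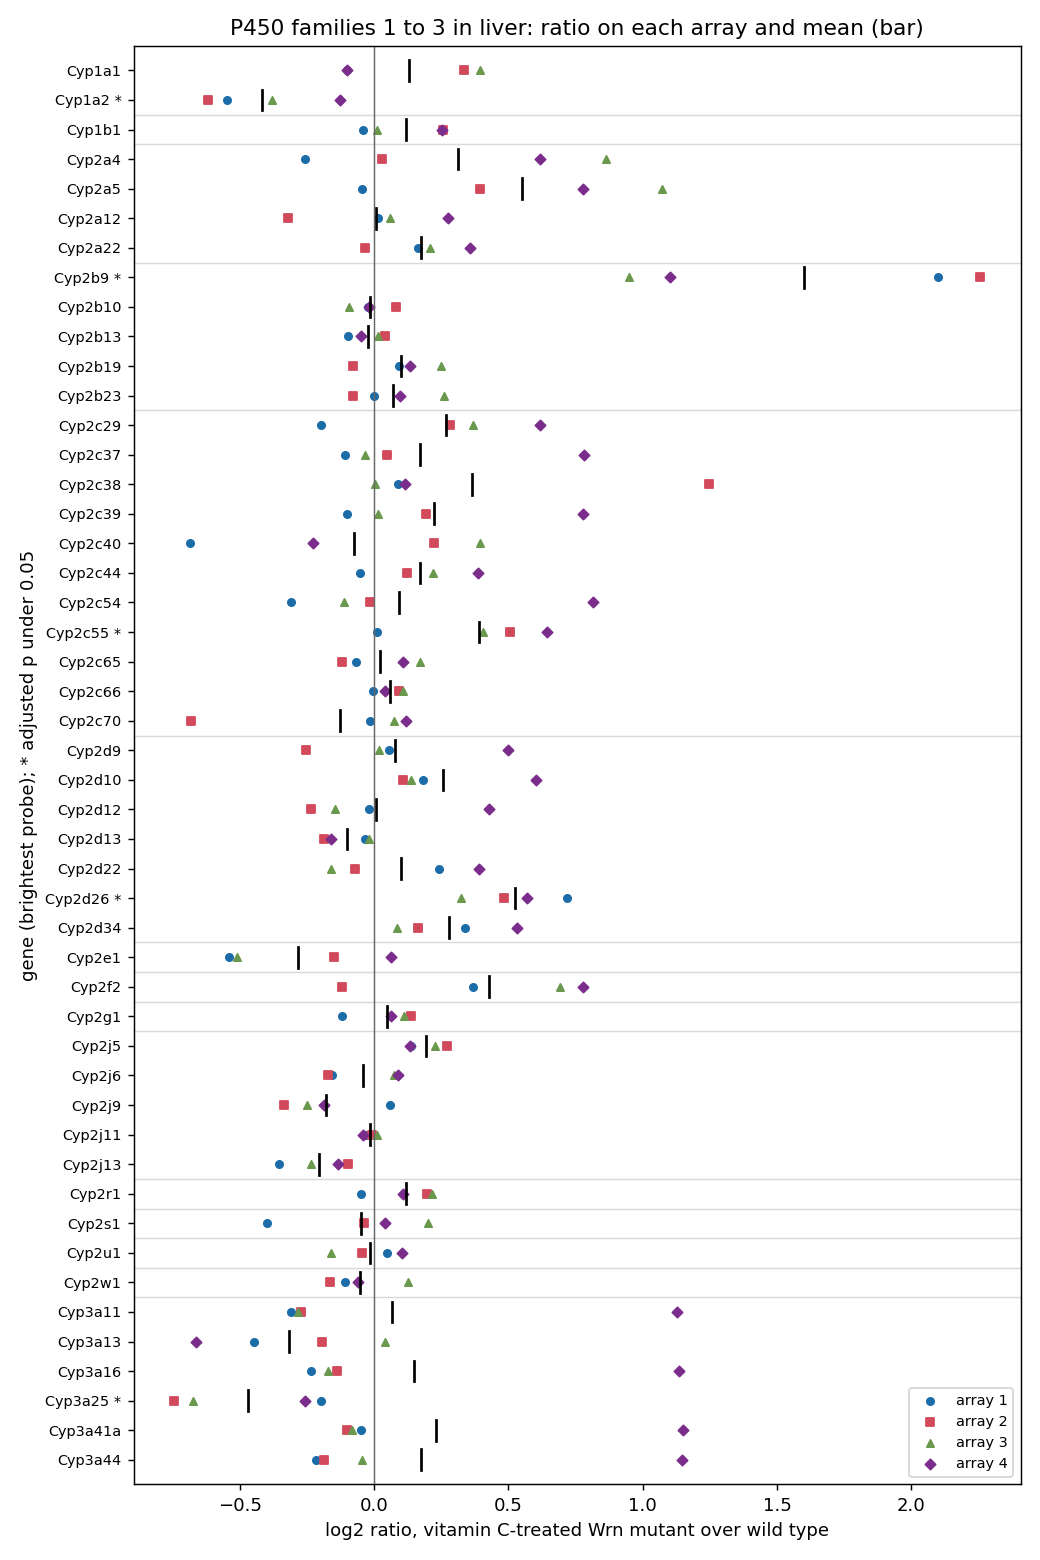
Log2 ratio of vitamin C-treated Wrn mutant over wild-type liver (x axis) for the brightest probe of each of the 48 genes (rows, by subfamily), with 1 symbol per array, a bar at the mean and an asterisk where the adjusted p was under 0.05. Cyp2b9 lies farthest to the right on arrays 1 and 2, at 2.10 and 2.26, and the array 4 points of Cyp3a11, Cyp3a16, Cyp3a41a and Cyp3a44 lie near 1.13 to 1.15, apart from the other 3 arrays.

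In the Cyp2b subfamily, which CAR induces after phenobarbital, 3 of 9 probes were higher in the mutants and none was lower. Cyp2b9 and Cyp2b13 are, in mice, made more in female than in male liver, and Cyp2b10 is the classical phenobarbital-induced member. Cyp2b9 probe A_51_P467076 had log2 levels of 10.15, 10.35, 9.43 and 9.28 in the mutants of arrays 1 to 4, against 8.06, 8.09, 8.48 and 8.18 in the wild-type mice. Every mutant was above every wild-type mouse, and the mutants of arrays 1 and 2 were the highest. The mean log2 ratio was 1.60 ± 0.67 (SD, n = 4 arrays), 3.03-fold, with a limma adjusted p of 0.0169.

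Cyp2b13 probe A_51_P492339 had log2 levels of 9.07, 9.20, 8.53 and 8.35 in the mutants, against 7.89, 7.97, 7.99 and 7.45 in the wild-type mice. The groups did not overlap, and arrays 1 and 2 again held the 2 highest mutants. Its mean log2 ratio was 0.96 ± 0.32 (SD, n = 4 arrays), 1.95-fold, with a limma adjusted p of 0.0131. Cyp2b10 probe A_52_P472486 had log2 ratios of 0.70, 1.13, 0.52 and 0.70 on the 4 arrays, mean 0.76 ± 0.26 (SD, n = 4 arrays, limma adjusted p = 0.0142). Its levels overlapped between groups, since both animals of array 1 were brighter than those of array 4, and within each array the mutant was the higher. These 3 calls were lost when array 2 was left out, at adjusted p of 0.0748, 0.0676 and 0.0634 for Cyp2b9, Cyp2b13 and Cyp2b10, and when channels were compared as unpaired groups (adjusted p = 0.128, 0.239 and 0.412). They were kept in the other 12 alternatives.

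The second probe of each of these genes did not pass. Cyp2b9 probe A_52_P256914 had log2 ratios of 0.09, 0.24, -0.02 and 0.07, and a mean of 0.10 ± 0.11 (SD, n = 4 arrays, limma adjusted p = 0.297). Cyp2b10 probe A_51_P182362 averaged -0.01 ± 0.07 and Cyp2b13 probe A_52_P289091 averaged -0.02 ± 0.06 (SD, n = 4 arrays each, limma adjusted p = 0.885 and 0.793). Of the called trio only the Cyp2b10 probe names a single gene, and whether the 3 probes read 1 or several transcripts was not tested. Cyp2b19, known from mouse skin, and Cyp2b23 did not pass, with mean log2 ratios of 0.05 and 0.10 for the Cyp2b19 probes and 0.07 for the Cyp2b23 probe.

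**Figure D2:**
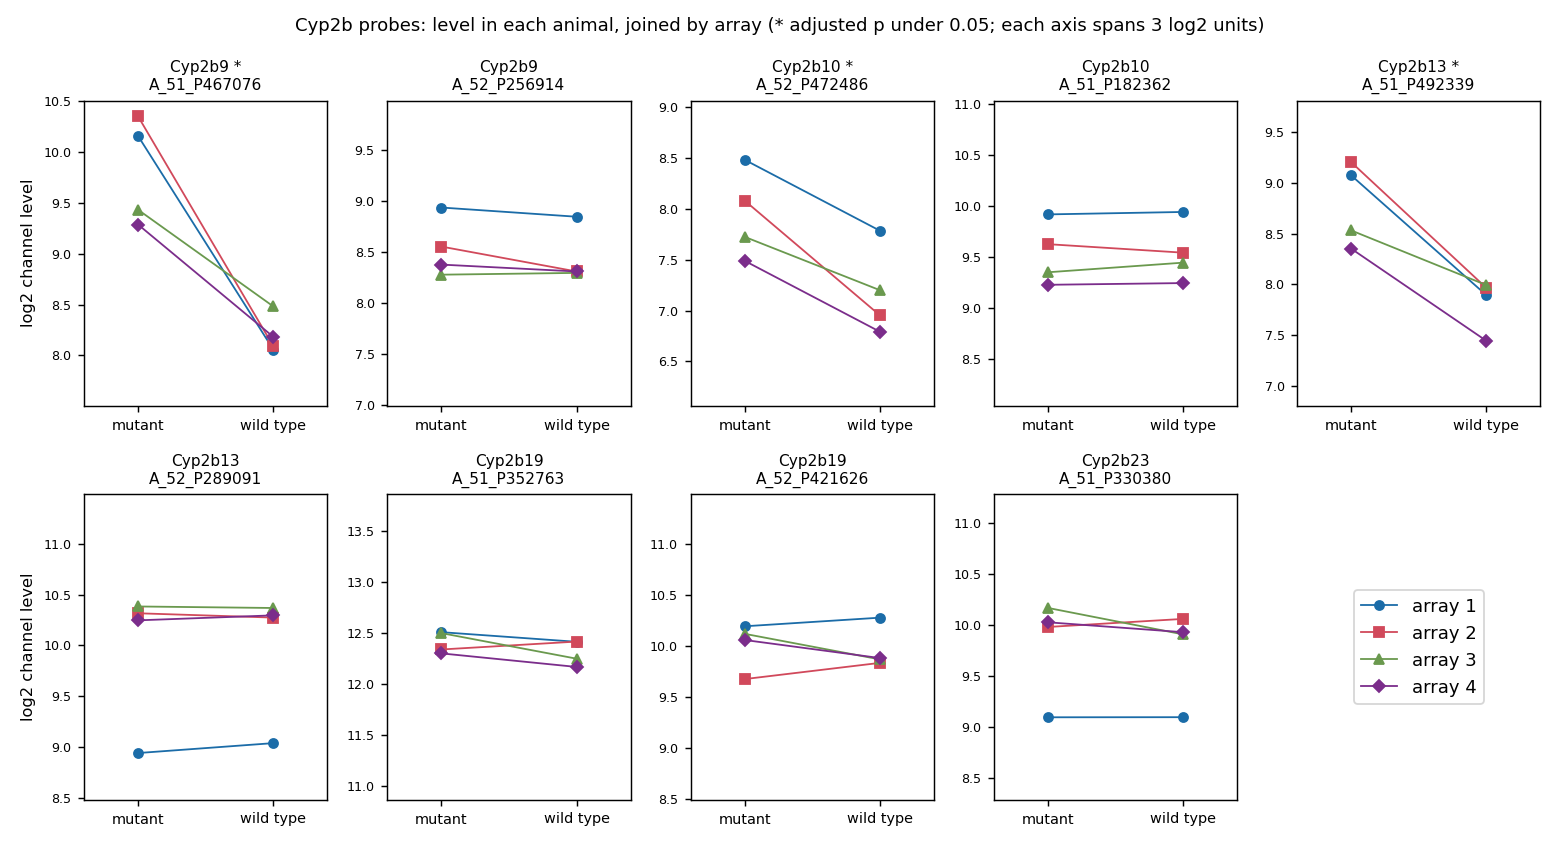
Log2 channel level (y axis, each panel spanning the same range) of the 9 Cyp2b probes in the mutant (left) and wild-type (right) animal of each array, joined by a line; asterisks mark an adjusted p under 0.05. In the called probes of Cyp2b9, Cyp2b10 and Cyp2b13 all 4 lines slope down towards the wild-type side, and in the other 6 panels mutant and wild type of an array differ by 0.26 or less.

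The upstream sequences of these 3 genes are given because the probes called in them moved together. Each is the 100 bases before the RefSeq start on the plus strand of GRCm38.p6, while the array annotation used mm9. Capitals in the Cyp2b10 line mark the 24 bases that differ from Cyp2b9 in a global alignment.
Cyp2b9 chr7:26173309-26173408: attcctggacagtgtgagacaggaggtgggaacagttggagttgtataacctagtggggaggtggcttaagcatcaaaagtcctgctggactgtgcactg
Cyp2b13 chr7:26061395-26061494: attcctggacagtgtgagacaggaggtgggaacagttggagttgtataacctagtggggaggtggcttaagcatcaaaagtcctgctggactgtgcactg
Cyp2b10 chr7:25897558-25897657: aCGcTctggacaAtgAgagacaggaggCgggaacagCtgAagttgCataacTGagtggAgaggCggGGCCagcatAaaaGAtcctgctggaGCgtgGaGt

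Cyp2b9 and Cyp2b13 have the same 100 letters, and over 250 upstream bases they were 99.2% identical, with 2 differing columns. Cyp2b10 was 75.2% identical to either over the 100-base window and 70.0% over 250 bases. The letters ATAAAAG, searched on both strands, are in the Cyp2b10 window and in 2.21% of 32851 RefSeq windows of the same length, and not in those of Cyp2b9 and Cyp2b13.

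Cyp2b9 and Cyp2b13 belong to a list of P450 genes that are higher in female liver, with Cyp2a4, Cyp2c40, Cyp3a16, Cyp3a41a and Cyp3a44. By the brightest probe of each gene 1 of the 7, Cyp2b9, was higher and none was lower, with a median log2 ratio of 0.18. Over all genes, each by its brightest probe, 12.4% of 20645 were called. Of 10 female-biased genes outside the families 1 was higher and none was lower, with a median of 0.11, and of 11 male-biased genes 2 were lower, Cyp7b1 at -0.99 and C6 at -0.92, with a median of 0.02.

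In family 1 the Ah receptor target Cyp1a2, which oxidises caffeine and aromatic amines, was lower in the mutants on 1 of its 2 probes. Probe A_52_P595871 had log2 levels of 14.41, 14.15, 14.55 and 14.56 in the mutants, against 14.96, 14.76, 14.93 and 14.69 in the wild-type mice. All mutants were below all wild-type mice, and the gap was smallest on array 4. The mean log2 ratio was -0.42 ± 0.22 (SD, n = 4 arrays, limma adjusted p = 0.0317). Probe A_51_P450140 had ratios of -0.33, -0.39, -0.19 and 0.07, mean -0.21 ± 0.20 (SD, n = 4 arrays, limma adjusted p = 0.130). With median centring the mean of probe A_52_P595871 was -0.18 and did not pass, at an adjusted p of 0.243, and the call was also lost without array 1, 2 or 3. Cyp1a1, the Ah receptor target that responds most to aryl hydrocarbons, had a mean log2 ratio of 0.13 ± 0.27, and Cyp1b1 had 0.12 ± 0.16 and -0.11 ± 0.12 on its 2 probes (SD, n = 4 arrays each), none past the threshold.

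Cyp2a genes oxidise coumarin, nicotine and steroids, and none of their 6 probes passed in limma, 3 having an unadjusted p under 0.05. Cyp2a5, the coumarin hydroxylase, had log2 ratios of -0.04, 0.39, 1.07 and 0.78 on arrays 1 to 4, mean 0.55 ± 0.48 (SD, n = 4 arrays, limma adjusted p = 0.0721). The 3 probes of Cyp2a4, a steroid hydroxylase, followed the same order, highest on array 3 and lowest on array 1, with means of 0.53, 0.31 and 0.07. Their accessions name both Cyp2a4 and Cyp2a5. For Cyp2a4 probe A_51_P377154 the mutants had log2 levels of 16.09, 16.28, 16.20 and 16.07, against 16.05, 16.01, 15.16 and 15.29 in the wild-type mice, and the groups did not overlap (adjusted p = 0.0704). Thus the wild-type animals of arrays 3 and 4 were the low ones. Cyp2a12 and Cyp2a22 had means of 0.01 and 0.17.

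In the Cyp2c subfamily, which oxidises arachidonic acid, retinoids and many drugs, 1 of 14 probes passed. Cyp2c55 had log2 ratios of 0.01, 0.51, 0.41 and 0.64 on the 4 arrays. The groups' levels overlapped, and on array 1 the 2 animals were nearly equal. The mean was 0.39 ± 0.27 (SD, n = 4 arrays, limma adjusted p = 0.04998), just inside the threshold, and it was kept in 6 of 14 alternatives. By the authors' deposited limma adjusted p, 0.0610, Cyp2c55 did not pass.

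The other Cyp2c genes had means of -0.14 to 0.36. Cyp2c37 probe A_51_P498882 (-0.11, 0.05, -0.03 and 0.78), Cyp2c39 (-0.10, 0.19, 0.02 and 0.78) and Cyp2c54 (-0.31, -0.01, -0.11 and 0.81) had their highest log2 ratio on array 4. Cyp2c38 was high on array 2 on both probes, at 1.25 for A_51_P342206 and 0.63 for A_52_P468564, and the other arrays ran from 0.00 to 0.12 on the first and from -0.38 to -0.22 on the second. Cyp2c70, which makes muricholic acids in mouse liver, was low on array 2, at -0.68, against -0.02, 0.08 and 0.12 on arrays 1, 3 and 4. Cyp2c40, whose probes also name Cyp2c67, Cyp2c68 or Cyp2c69, was lowest on array 1, at -0.68 and -0.76. Cyp2c29, a target of CAR, had a mean of 0.27 ± 0.34, and Cyp2c44, an arachidonic acid epoxygenase now named Cyp2c23, 0.17 ± 0.18 (SD, n = 4 arrays each). Cyp2c65 and Cyp2c66, known from the intestine, had means of 0.02 and 0.06.

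In the Cyp2d subfamily 1 of 11 probes was higher and 1 was lower. The higher one was Cyp2d26 probe A_51_P120295, of which the first 30 bases are given.
Cyp2d26 A_51_P120295: ctatcagctctgtgcagtggctcgatagca
It had log2 levels of 18.00, 17.92, 17.84 and 18.00 in the mutants, against 17.28, 17.44, 17.52 and 17.43 in the wild-type mice. Every mutant was above every wild-type mouse, and the mean log2 ratio was 0.52 ± 0.17 (SD, n = 4 arrays, limma adjusted p = 0.0159). With Agilent's processed log ratio the mean was 0.32 and did not pass, and with median centring it was 1.14.

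Cyp2d22, often taken as the mouse counterpart of the human debrisoquine hydroxylase, differed between its 3 probes. Probe A_52_P478420, for which no accession was matched, had ratios of -0.35, -0.72, -0.28 and -0.99, mean -0.58 ± 0.33 (SD, n = 4 arrays, limma adjusted p = 0.0311), a call kept in 9 of 14 alternatives and lost without array 1, 2 or 4. Probes A_51_P124126 and A_52_P49391, which name Cyp2d22, had means of 0.10 ± 0.26 and 0.24 ± 0.18 (SD, n = 4 arrays each) and did not pass. So the probe with no matched accession had the opposite sign to both probes that name the gene.

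Cyp2d9, a testosterone hydroxylase of male mouse liver, was measured by 2 overlapping probes, shown because they share 27 bases, in capitals. Both also name Cyp2d11, and A_51_P124133 names Cyp2d34 and Cyp2d40 as well.
Cyp2d9 A_51_P478303: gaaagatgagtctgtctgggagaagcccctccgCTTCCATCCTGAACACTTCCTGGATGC
Cyp2d9 A_51_P124133: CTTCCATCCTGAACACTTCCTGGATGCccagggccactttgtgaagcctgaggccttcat
Their log2 ratios were 0.05, -0.29, -0.03 and 0.51 for A_51_P478303 and 0.06, -0.25, 0.02 and 0.50 for A_51_P124133. The means of 0.06 ± 0.33 and 0.08 ± 0.31 (SD, n = 4 arrays each) did not pass. Cyp2d10, Cyp2d12, Cyp2d13 and Cyp2d34 had brightest-probe means of -0.10 to 0.28, and their probes did not pass. For Cyp2d10 probe A_51_P111192, at 0.18, 0.11, 0.14 and 0.60, every mutant was above every wild-type mouse.

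Among the 20 genes with more than 1 tested probe, 5 had probes that differed in call: Cyp1a2, Cyp2b9, Cyp2b10, Cyp2b13 and Cyp2d22. Cyp3a25 alone had all its probes called, and in the other 14 none was called. Of the 9 calls 4 were on probes naming 1 gene, 4 on probes naming several and 1 on a probe naming none.

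**Figure D3:**
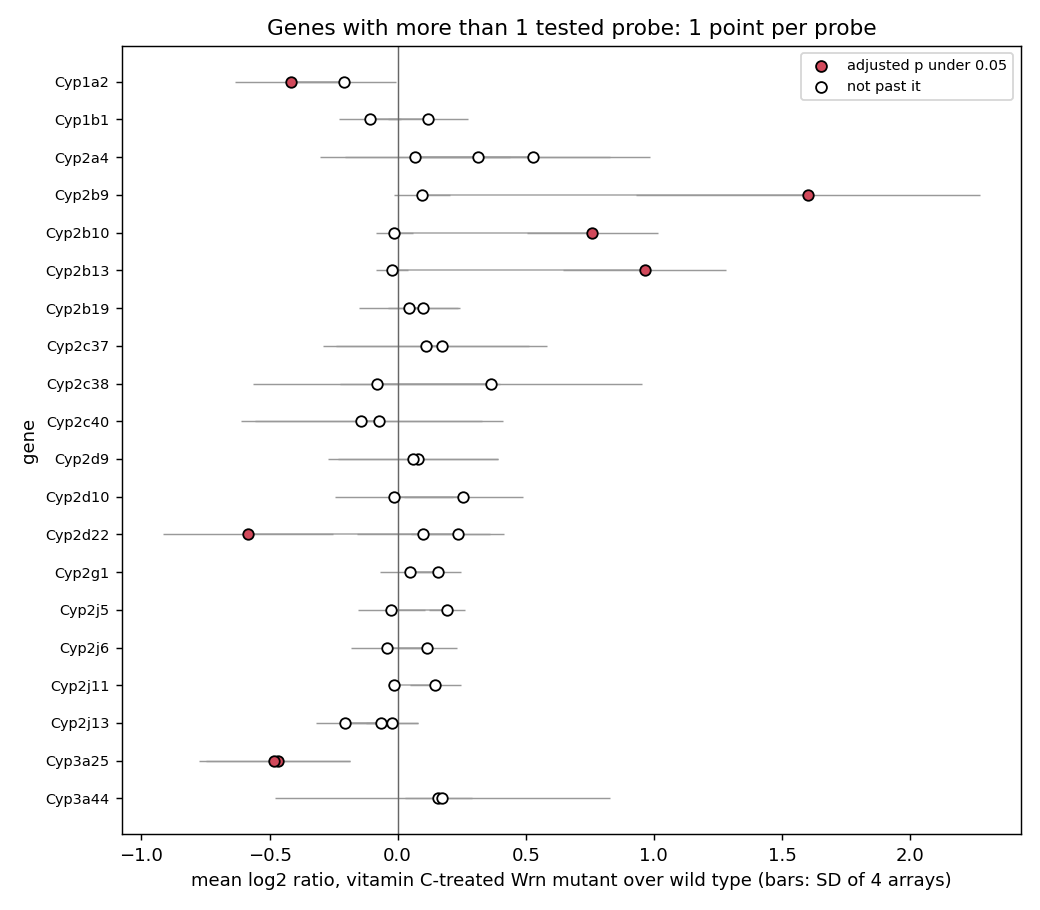
Mean log2 ratio of mutant over wild type (x axis, bars SD over 4 arrays) for each tested probe of the 20 genes with more than 1, with filled points past an adjusted p of 0.05. The points of Cyp2b9 lie at 1.60 and 0.10, those of Cyp2d22 at -0.58, 0.10 and 0.24, and the 2 filled points of Cyp3a25 lie together at -0.48 and -0.47.

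The Cyp3a subfamily, whose members are PXR targets and oxidise a large share of drugs and bile acids, had 2 of 8 tested probes lower, both of Cyp3a25, and none higher. Cyp3a25 probe A_51_P489367 had log2 levels of 16.14, 15.87, 15.87 and 16.01 in the mutants, against 16.33, 16.61, 16.55 and 16.26 in the wild-type mice. Probe A_52_P380314 had 13.78, 13.60, 13.43 and 13.73 in the mutants, against 14.19, 14.17, 14.26 and 13.85 in the wild-type mice. On both, every mutant was below every wild-type mouse. The mean log2 ratios were -0.47 ± 0.28 and -0.48 ± 0.29 (SD, n = 4 arrays each), with limma adjusted p of 0.0368 and 0.0372, and each call was kept in 8 of 14 alternatives. Both were lost without array 1, 2 or 3, and the first also without array 4. With median centring they were -0.04 and -0.33 and neither passed. The probes also name Cyp3a59, and the second Cyp3a57, so that these copies were not separated. The coding probe of Cyp3a25 and that of Cyp3a11 are shown because these are neighbours in 1 cluster and only Cyp3a25 was called. The genes were not tested against each other.
Cyp3a25 A_52_P380314: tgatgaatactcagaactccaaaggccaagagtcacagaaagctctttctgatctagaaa
Cyp3a11 A_51_P355301: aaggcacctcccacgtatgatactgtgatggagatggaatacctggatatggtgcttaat

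Cyp3a11, the main PXR-induced member in mouse liver, had log2 levels of 16.02, 15.99, 16.25 and 16.50 in the mutants, against 16.33, 16.26, 16.53 and 15.37 in the wild-type mice. The wild-type animal of array 4 was below all others, and on arrays 1 to 3 the mutant was the lower of each pair. The log2 ratios were -0.31, -0.27, -0.28 and 1.13, with a mean of 0.07 ± 0.71 (SD, n = 4 arrays, limma adjusted p = 0.870). Without array 4 the mean was -0.29 (adjusted p = 0.0689). The probe also names Cyp3a41a, Cyp3a41b and Cyp3a44.

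Cyp3a16, Cyp3a41a and Cyp3a44, which are made more in female than in male liver, were likewise highest on array 4 by the brightest probe of each. Their log2 ratios on array 4 were 1.14, 1.15 and 1.15 (probe A_52_P571006 for Cyp3a44), and those on arrays 1 to 3 ran from -0.23 to -0.05. Cyp3a16 and Cyp3a41a had wild-type log2 levels of 14.37 and 16.29 on array 4, against their mutant levels of 15.50 and 17.44 on the same array. Without array 4 the means were -0.18, -0.08 and -0.15, none past the threshold. Cyp3a13 ran the other way, at -0.45, -0.19, 0.04 and -0.66, mean -0.32 ± 0.30 (SD, n = 4 arrays, limma adjusted p = 0.102), and the wild-type animal of array 4 was its highest, at 15.11. The dim second probe of Cyp3a44 had a mean of 0.16 ± 0.13 (SD, n = 4 arrays) and did not pass.

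Genes of the acute phase response, which liver raises in inflammation, differed most on the same array. Of 11 such genes, all well above background in every animal, 5 (45.5%) were lower in the mutants and none was higher. The share called over all genes was 12.4%. The lower ones were Saa1, Saa2, Saa3, Fgl1 and Steap4, and these calls were not refitted with an array left out. The median log2 ratio of the 11 was -0.53, -0.62, -0.13 and -2.81 on arrays 1 to 4. Their mean log2 level was 12.74, 12.70, 13.12 and 13.96 in the mutants, against 13.33, 13.72, 13.83 and 16.71 in the wild-type mice, so the wild-type animal of array 4 was the highest. The part of this in the P450 ratios was not tested.

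**Figure D4:**
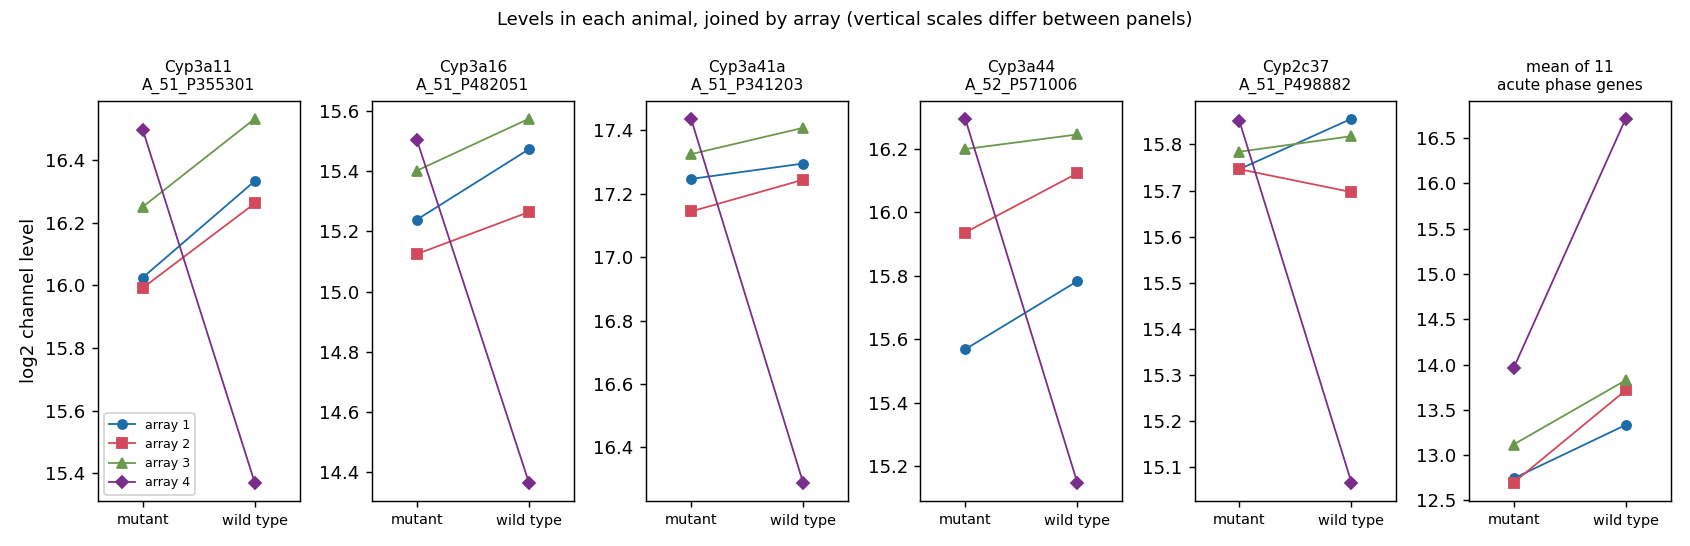
Log2 channel level (y axis, scales differ) in the mutant (left) and wild-type (right) animal of each array for 4 Cyp3a probes, Cyp2c37 and the mean of 11 acute phase genes. In the 5 P450 panels the wild-type animal of array 4 is the lowest of all 8 animals, and in the last panel it is the highest, at 16.71.

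The median log2 ratio of the 71 probes was -0.04, -0.01, 0.06 and 0.18 on arrays 1 to 4, and 24, 35, 46 and 53 probes were above 0. By subfamily the array 4 median was 0.66 for Cyp3a, 0.48 for Cyp2d, 0.49 for Cyp2a and 0.25 for Cyp2c, against -0.22, 0.06, -0.01 and -0.10 on array 1. Array 4 gave the highest of the 4 medians for Cyp3a, Cyp2d and Cyp2c, while Cyp2a was higher on array 3, at 0.68, and so was Cyp2b, at 0.25 against 0.13 on array 4. Over all tested probes the array medians stayed between 0.00 and 0.01. Loess within each array centres them, so they could not have shown a shift over all probes.

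In the other 7 subfamilies of family 2, each of 1 gene, limma called 0 of 8 tested probes, and 3 had an unadjusted p under 0.05. Cyp2e1, the ethanol and acetaminophen oxidase of cells around the central vein, had log2 ratios of -0.54, -0.15, -0.51 and 0.07, mean -0.28 ± 0.29 (SD, n = 4 arrays, limma adjusted p = 0.121). Cyp2f2, which oxidises naphthalene and marks cells around the portal tract, had 0.37, -0.12, 0.69 and 0.78, mean 0.43 ± 0.41 (SD, n = 4 arrays, limma adjusted p = 0.0887), and with median centring it passed at 1.01. Both were thus opposite in sign to the rest on 1 array each, array 4 for Cyp2e1 and array 2 for Cyp2f2. Cyp2r1, which hydroxylates vitamin D, had a mean of 0.12 ± 0.12, and Cyp2u1, a fatty acid hydroxylase, -0.01 ± 0.11 (SD, n = 4 arrays each). Cyp2g1, Cyp2s1 and Cyp2w1, known chiefly from tissues other than liver, had means of -0.05 to 0.16 over their tested probes.

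Marker genes of the hepatocyte zones and of other liver cells were counted beside these values, where 12.4% of all genes were called. Of 12 pericentral genes 3 were higher and 4 lower, with a median log2 ratio of -0.21. The higher ones were Gstm3 at 0.62, Aldh1a1 at 0.60 and Rgn at 0.41. The lower ones were Tbx3 at -0.91, Axin2 at -0.54, Slc1a2 at -0.28 and Rnf43 at -0.27. Of 10 periportal genes 3 were higher and none lower, with a median of 0.28. Of the 10 hepatocyte genes 4 were higher, with Alb at 0.83, and 1 was lower, Hnf4a. In bulk liver RNA fewer cells of a type and less RNA per cell cannot be told apart, and the part of these markers in the P450 values was not tested. Sinusoidal endothelial markers were lower for 4 of 9 genes and cholangiocyte markers for 2 of 7. None of 9 Kupffer cell, 7 stellate, 5 erythroid and 8 B cell, T cell and neutrophil genes passed in limma, with an unadjusted p under 0.05 in 2 of the last list and in 0 of the other three.

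In the Cyp2j subfamily, whose members make epoxides of arachidonic acid, none of 10 probes passed in limma, 4 having an unadjusted p under 0.05, and the means ran from -0.20 to 0.19. Cyp2j5, the abundant member of mouse liver and kidney, was above 0 on all 4 arrays with probe A_52_P315766, at 0.14, 0.27, 0.23 and 0.13 (limma adjusted p = 0.0544). Its second probe, A_51_P307872, averaged -0.02 ± 0.13 (SD, n = 4 arrays). Cyp2j13 probe A_51_P476481, which also names Cyp2j12, was below 0 on all 4 arrays, mean -0.20 ± 0.12 (SD, n = 4 arrays, limma adjusted p = 0.0669). The probes of Cyp2j6, Cyp2j9 and Cyp2j11 had means of -0.18 to 0.15.

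Genes that act with the P450s were taken in 3 lists, each gene by its brightest probe, where 12.4% of 20645 genes were called. Of 30 transcription factors that drive P450 genes, 5 were lower and none was higher, with a median log2 ratio of -0.11. With median centring 1 was higher and 2 were lower. The lower ones included Cebpa, a liver-enriched activator, at -0.41 ± 0.13, the clock-regulated factor Tef at -0.36 ± 0.07, and the pioneer factor Foxa1 at -0.30 ± 0.13 (SD, n = 4 arrays each, limma adjusted p = 0.0187, 0.0164 and 0.0344). All 4 arrays lay below 0 for each of the 3. Dbp and Hnf4a were the others, and Hnf4a is also the lower gene of the hepatocyte list.

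Of 19 genes for electron donors and haem supply, 2 were higher and 3 lower, with a median of -0.03. With median centring 4 were higher and none was lower. The higher ones were Pgrmc1, a haem-binding partner of P450 enzymes, at 0.53 ± 0.19, and Cyb5b, an outer mitochondrial cytochrome b5, at 0.27 ± 0.14 (SD, n = 4 arrays each). Among the lower ones were Alad, which acts early in haem synthesis, at -0.28 ± 0.15, and Hmox2, a haem oxygenase, at -0.21 ± 0.06 (SD, n = 4 arrays each). Limma adjusted p was 0.0178 for Pgrmc1, 0.0409 for Cyb5b, 0.0436 for Alad and 0.0449 for Hmox2.

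Of 21 tested targets of the Ah receptor, CAR and PXR outside the families, 6 were higher and 2 lower, with a median of 0.10. Aldh1a1 and Gstm3, both among the higher ones, are also counted in the pericentral list. The highest were the glutathione transferases Gsta2, at 1.55 ± 0.53, Gstm1, at 0.93 ± 0.36, and Gsta1, at 0.89 ± 0.38 (SD, n = 4 arrays each, limma adjusted p = 0.0129, 0.0161 and 0.0185). The accessions of the Gsta2 probe and of the Gsta1 probe name both genes, so these 2 calls were not separated. Gsta2 had log2 ratios of 0.98, 1.80, 1.27 and 2.15, above 0 on all 4 arrays, and the other two were likewise above 0 on each. The lower pair was Abcc2, the canalicular export pump, at -0.35 ± 0.10, and Gadd45b, a stress-response gene, at -0.30 ± 0.15 (SD, n = 4 arrays each). Without array 2 none of the calls in the 3 lists was kept.

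**Figure D5:**
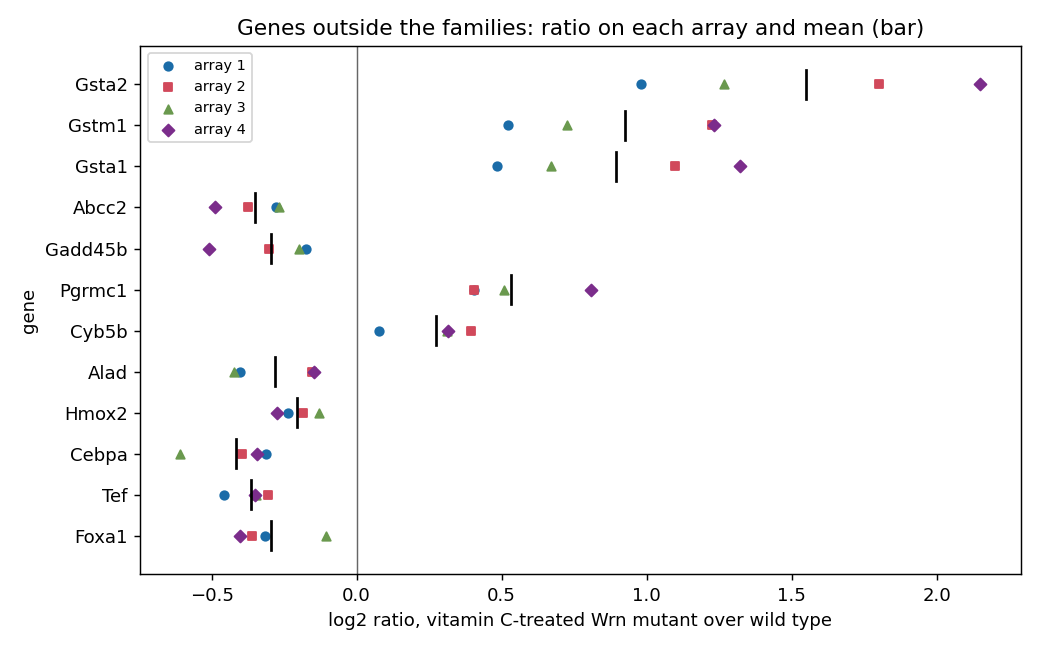
Log2 ratio of mutant over wild type (x axis) on each of the 4 arrays, with a bar at the mean, for the 12 genes named from the lists of P450 transcription factors, electron donors and haem supply, and receptor targets. Gsta2 has the highest mean, 1.55, and Cebpa the lowest, -0.41.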

How the data were processed

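Liver RNA of 4 treated mutants and 4 wild-type mice was compared on 4 arrays of 1 slide and 1 scan, with Cy5 for the mutant on each. Spot intensity values came from Agilent Feature Extraction 10.5.1.1, per the file headers, and the array annotation names mm9. The deposited scanner files also hold a log10 ratio of the processed signals. The authors' deposited table gives, for 43379 spots, a log2 ratio per array and their mean, a p-value with and without adjustment, and 3 scores (moderated t, log odds, signed fold). Per the submitters' processing notes limma was used. The deposited log2 ratios were recomputed from median intensities by background subtraction and loess, with a largest difference of 5e-08. Of its numeric columns 0 were left aside.

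Ratios of mutant over wild type were fitted with an intercept in R 4.3.3 and limma 3.58.1 (lmFit, eBayes, two-sided). Outlier-flagged spots were dropped, matched by value for the 245 probes with 10 spots, and spots of 1 probe were averaged. Probes had to be well above background in Cy5 or in Cy3 on at least 3 arrays, which kept 39080 of 41174. No member spot was flagged or saturated. Calls used a Benjamini-Hochberg adjusted p under 0.05. Channel levels followed subtraction, loess and Aquantile and are open to dye bias, so no probe's level is set against another's.

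The array pairs the channels: deviations of the 2 channels from their group means correlated at 0.94, 0.71, 0.69 and 0.73 on arrays 1 to 4, across probes, which are not independent. The main fit keeps this pairing. The number of arrays limits precision.

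Members and lists were chosen with earlier results of these data known. Every called P450 probe is named, every gene is given by value or range, and of each other list up to 3 genes past the threshold per direction. A few items this would include are not reported here. Marker list genes and further P450 values were named after they were seen. Alternatives covered background, normalization, filter, flags, moderation, weights, pairing, thresholds, the authors' adjusted p and each array left out. RefSeq sequences are of GRCm38.p6, and no genome of the array's build was used here.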

Additional observations from a re-analysis of the deposited data

Results flagged for a closer look

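In 10 of the 71 tested P450 probes the log2 ratio of 1 array stood apart from the other 3 by Dixon's test at a critical value of 0.829, which chance passes in about 1 of 20 groups. That is 14.1% of the P450 probes, against 4.6% of all tested probes, and 7 of the 10 were on array 4 and 3 on array 2. Several of these probes read near copies of the same genes and are not independent.

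On array 4 the ratio was 1.13 for Cyp3a11, 1.14 for Cyp3a16, 1.15 for Cyp3a41a, 1.15 for Cyp3a44 probe A_52_P571006, 0.71 for Cyp2c37 probe A_52_P625249 and 0.60 for Cyp2d10 probe A_51_P111192, all above the other arrays. Cyp2j13 probe A_52_P347956 was low there, at -0.28. On array 2 both Cyp2c38 probes were high, at 1.25 for A_51_P342206 and 0.63 for A_52_P468564, and Cyp2c70 was low, at -0.68.

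The 11 acute phase genes had median log2 ratios of -0.53, -0.62, -0.13 and -2.81 on arrays 1 to 4, so by this median array 2 lay near array 1. Single genes differed. Saa1, Saa2 and Saa3 were at -2.43, -2.52 and -2.59 on array 2, against -0.97, -0.78 and -1.17 on array 1. Fgl1 and Steap4, the other called ones, were at -1.11 and -0.37 on array 2, against -1.92 and -0.39. The part of the acute phase genes in the P450 ratios was not tested.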

How the results depend on the processing

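The 9 called P450 probes kept their sign in all 14 refits, and 9 remained called with normexp, the stricter filter and trended moderation. No spot on any array was saturated. The refit without saturated spots, which is counted among the 14, therefore repeated the main fit and could not change a call. The count was 18 with median centring (6 of the 9 kept), 4 with Agilent's processed log ratio, 3 at 1.5-fold or more, and 0 to 6 with each array left out. The cause was not tested. Without the replicate block, with the channels of each array as unpaired groups, it was 0 in limma, with 13 at an unadjusted p under 0.05. For all probes the 4816 calls were 6127 with median centring, 1196 with Agilent's ratio, 24 without the replicate block, 320 at 1.5-fold or more and 12 to 1587 with each array left out. With median centring 25.4% of P450 probes were called, against 15.7% of all probes. With Agilent's ratio the shares were 5.63% and 3.06%.

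The 5 transcription factor calls, all lower, were 3 with median centring (1 higher and 2 lower), 2 with Agilent's ratio, 0 without the replicate block, 0 at 1.5-fold or more and 0 to 3 with each array left out. The 5 electron donor and haem calls (2 higher and 3 lower) were 4 with median centring, all higher, 3 with no filter on dim probes, 3 by the authors' deposited adjusted p, 0 with Agilent's ratio, 0 without the replicate block, 0 at 1.5-fold or more and 0 to 2 with each array left out. The 8 receptor target calls were 2 with Agilent's ratio, 5 at 1.5-fold or more, 0 without the replicate block and 0 to 5 with each array left out. In every one of these lists, and for the P450 probes, the 0 among the arrays left out came without array 2. Leaving out an array leaves 3 ratios per probe. The called P450 probes, and the called list genes given with an SD, changed sign in no refit. The other genes of these 3 lists were followed by counts only. Calls in the marker lists, such as the acute phase, zone, cell type and sex-biased genes, were not followed in the refits. Without array 2 limma called 12 of all probes. With no filter on dim probes Cyp2s1 probe A_52_P456837 was also called lower (limma adjusted p = 0.0162). Its fold is not given, as neither channel was well above background on any array.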
